A study of Jaculus jaculus and Mus musculus with 24 samples.

Results

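The nuclear-encoded subunits of the respiratory chain and ATP synthase were followed in hindfoot and forelimb muscle of newborn jerboas and mice. Members were all features whose identifier pairs with a mouse protein-coding symbol that starts with Nduf, Uqcr, Cox4i, Cox5, Cox6b, Cox6c, Cox7b, Cox7c or Atp5, together with Sdha, Sdhb, Sdhc and Sdhd, leaving out assembly factors and Atp5 symbols that end in s or sl. This gave 73 genes of the 17641 features in each file: 36 of complex I, 4 of complex II, 8 of complex III, 10 of complex IV and 15 of complex V. Of these, 72 had enough reads to be tested, and Cox7b2, with 26 reads over all libraries, had not. Atp5b, Ndufb9 and Ndufv1 fall under the same names and were not analysed here. No mitochondrially encoded subunit was analysed either.

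RNA was sequenced from muscle in sections of the hindfoot and from dissected forelimb (FDS) muscle of 2 rodents, the jerboa Jaculus jaculus, which walks on its hindlegs, and the mouse Mus musculus, on the day of birth (P0) or at postnatal day 3 (P3). The 8 groups held 3 libraries each, all 24 libraries are labelled as normal in treatment, and the labels give no strain, genotype or sex. The series asks which expression differences go with the loss of the muscles within the jerboa hindfoot. Whether the 3 libraries of a group stand for 3 animals is not stated in the labels, and p-values therefore reflect only how far these libraries differ, which may be technical. Sampling differed between the tissues in both species, and P0 libraries are labelled as trimmed and P3 libraries as raw reads, so age and the kind of read file cannot be told apart; libraries of the 2 ages were not tested against each other, and only the limb differences were compared between ages.

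The chain sits in the inner mitochondrial membrane. Complex I takes electrons from NADH and complex II from succinate; complex III passes them to cytochrome c, and complex IV hands them to oxygen. Complexes I, III and IV pump protons, and complex V uses the return of those protons to make ATP. Muscle fibres hold many mitochondria, and their content differs with fibre type and use. Most subunits are encoded in the nucleus and must be assembled with the few made inside the organelle.

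Libraries held 16734991 to 54689680 counted reads. Levels are in CPM, read counts scaled to a common depth, computed with the effective library size, and a change is the log2 fold change of foot over forelimb ± its SE, with 3 libraries a group. A gene was called at a Benjamini-Hochberg adjusted p under 0.05 in edgeR's quasi-likelihood test over 14448 genes. Levels were compared neither between genes, since no length was taken into account, nor gene by gene between species. Both tissues held muscle by their markers, and markers of other cell types, given below, were present too. All 19 measured genes of the muscle fibre, such as skeletal actin Acta1 and titin Ttn, had reads in every group, and their summed level was 46699 to 68182 CPM in jerboa foot and 87071 to 120200 CPM in jerboa forelimb. In mouse it was 45812 to 62474 CPM in foot and 90177 to 105690 CPM in forelimb.

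Subunits of the chain were lower in foot than in forelimb in both species and at both ages. At P0 in jerboa 45 of 72 were lower and 8 higher, against 34.8% and 31.2% of all genes tested, and 65.9% of all genes were called in either direction. At P3 in jerboa 41 were lower and 4 higher, against 32.1%, 35.9% and 67.9% in the same order. In mouse 62 were lower and 3 higher at P0 (29.3%, 29.8% and 59% of all genes), and 66 were lower and 0 higher at P3 (25.3%, 27.3% and 52.5%). Without replicate 1 of jerboa foot at P3, 2 members in place of 4 were higher in that comparison. The median change of the members was -0.44 in jerboa at P0, -0.31 in jerboa at P3, -0.63 in mouse at P0 and -0.55 in mouse at P3, while the medians over all genes tested were -0.01, 0.04, 0.01 and 0.03. The SD of the members' median was 0.09, 0.09, 0.30 and 0.07 in this order, widest in mouse at P0.

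The separation of single libraries showed the same direction. All 3 foot libraries lay below all 3 forelimb libraries for 46 members in jerboa at P0, where 35.3% of all genes did so, and for 47 at P3, where 33.7% did. In mouse this held for 55 members at P0 and 68 at P3, against 30.4% and 32.1% of all genes. Across comparisons, 26 members were lower in all 4, against 10.5% of all genes tested. In both mouse comparisons 59 were lower (17.2% of all genes), and in both jerboa comparisons 30 were lower (25.7% of all genes). There were 12 members lower in both mouse comparisons and in neither jerboa comparison (3.98% of all genes), 9 of them in complex I and 3 in complex III. The reverse pattern, lower in both jerboa comparisons and in neither mouse comparison, had 0 members and 8.04% of all genes.

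**Figure D1:**
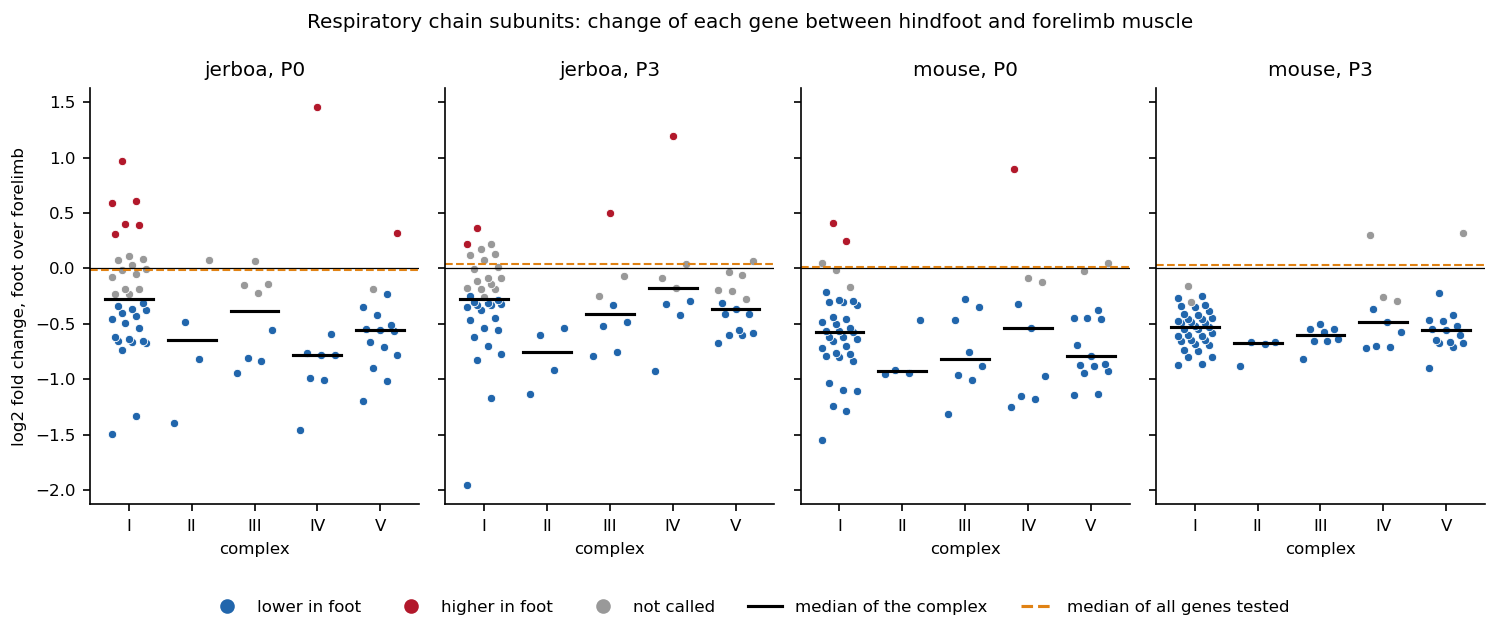
Change of each tested member between foot and forelimb (log2 scale, points) by complex, in jerboa and mouse at P0 and P3, with the median of the complex (black line) and of all genes tested (dashed). In mouse at P3 all 36 members of complex I lie below 0, between -0.16 and -0.87, whereas in jerboa the members spread on both sides of 0; Cox6b2, which has almost no reads in jerboa, is left out of the jerboa panels.

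The summed level of the members shows how large the difference was in CPM. Effective library sizes differ from the counted reads, so these sums are not shares of the reads. In jerboa at P0 the members summed to a mean of 13554 CPM in foot and 19335 CPM in forelimb, so their sum was 29.9% lower in foot. At P3 it was 24.9% lower in jerboa, and in mouse it was 38.5% lower at P0 and 33.8% lower at P3. The muscle fibre markers, summed in the same way, were 43.1%, 48.6%, 48.1% and 36.0% lower in foot, in the order jerboa P0, jerboa P3, mouse P0 and mouse P3. In bulk samples, fewer cells of a type and less RNA per cell cannot be told apart.

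The drop of the sum ranged widely between complexes in jerboa. Complex I had the smallest drop of its sum in jerboa at P0 (16.7%) and complex IV the largest (41.0%). At P3 in jerboa complex II was lowest relative to forelimb (42.3% lower) and complex IV closest to it (17.2% lower). In mouse the sums of the 5 complexes were 32.9% to 44.4% lower at P0 and 31.8% to 40.7% lower at P3, with complex I the smallest and complex II the largest drop at both ages. One library stood apart: replicate 1 of mouse foot at P0 had 10989 CPM over all members, against 8188 CPM in the lowest of that group, and it was the highest library of that group for each complex. It was also the highest of that group for the muscle fibre markers, at 62474 CPM against 45812 and 47786 CPM, and for the genes of the citric acid cycle and of fatty acid oxidation, and the part of this in the results was not tested. Without it, 28 in place of 17 members had a positive limb by age difference in mouse, as given below.

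**Figure D2:**
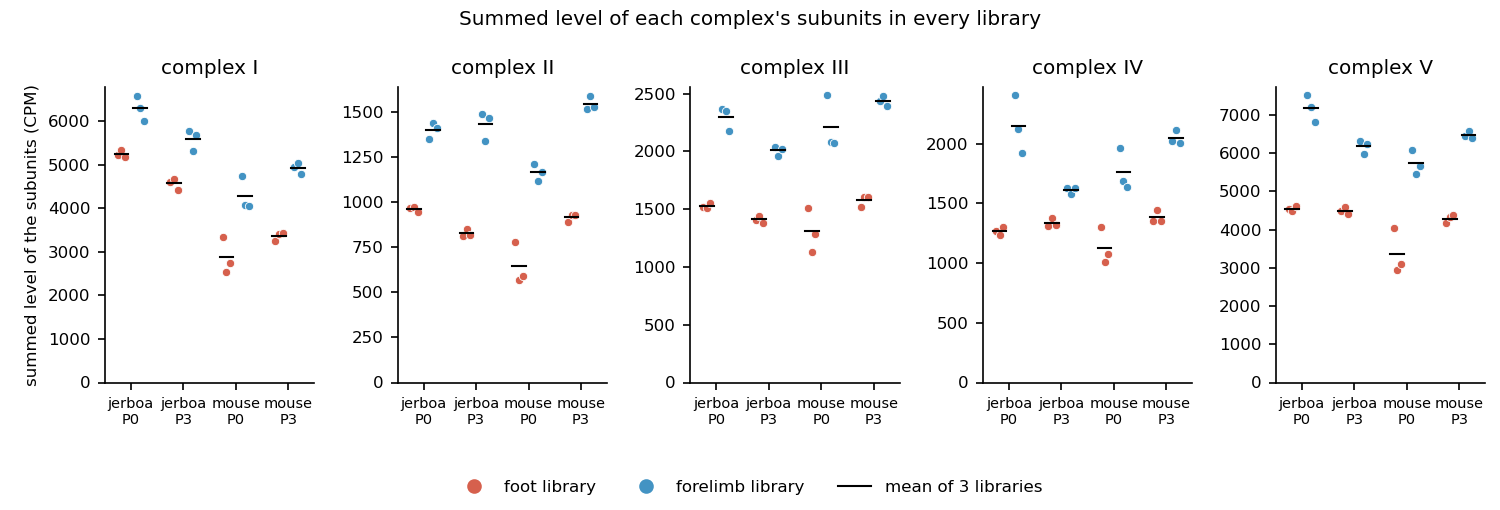
Summed level of the subunits of each complex (CPM, from 0) in every library, foot in red and forelimb in blue, with the mean of the 3 libraries of each group. Foot libraries lie below forelimb libraries of the same species and age in every panel; heights cannot be compared between species, since gene models differ.

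In complex I, Ndufs1, the large iron-sulfur subunit of the NADH-oxidising arm, fell in all 4 comparisons. It was at 178, 172 and 188 CPM in jerboa foot and 505, 535 and 481 CPM in jerboa forelimb at P0, a change of -1.499 ± 0.09 (edgeR adjusted p = 3.9e-13). In mouse at P0 it was at 149, 104.6 and 116 CPM in foot and 318, 278 and 280 CPM in forelimb, a change of -1.25 ± 0.09. Its foot and forelimb libraries did not overlap in either species, and the changes at P3 were -1.17 ± 0.09 in jerboa and -0.87 ± 0.09 in mouse.

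Several complex I subunits were lower in mouse foot and showed no such change in jerboa. Ndufs4, an accessory subunit of the NADH arm whose loss in mice gives a model of Leigh syndrome, was at 231, 220 and 238 CPM in jerboa foot and 217, 224 and 208 CPM in jerboa forelimb at P0. In mouse at P0 it was at 65.96, 49.0 and 56.9 CPM in foot and 147, 118 and 103 CPM in forelimb. The jerboa libraries of the tissues differed little (0.09 ± 0.10, not called), while those of mouse stood apart (-1.10 ± 0.10), and the difference between the species' changes was 1.19 ± 0.14 at P0 (edgeR adjusted p = 1.52e-07) and 0.75 ± 0.14 at P3. Ndufb2, an accessory subunit of the membrane arm, was at 147 to 177 CPM in jerboa foot and 128 to 175 CPM in the P0 forelimb of jerboa, and at 26.7 to 37.3 CPM and 65.0 to 95.2 CPM in mouse. The 2 jerboa ranges overlapped and those of mouse did not, with a difference between the species' changes of 1.37 ± 0.18 at P0. At P3 that difference was 0.44 ± 0.17. Ndufs5, on the outer face of the membrane arm, had a difference of 1.31 ± 0.21 at P0, with a mouse change of -1.55 ± 0.16. Its mouse level was 7.66 to 35.4 CPM, and 41.2% of the 50-base windows of its mouse transcript also occur in a transcript from another place in the genome, so its mouse count is uncertain.

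Of the 36 members of complex I, 6 were higher in jerboa foot at P0: Ndufv3, Ndufa12, Ndufa3, Ndufs8, Ndufb11 and Ndufa7. That is a smaller share than the 31.2% of all genes tested. Ndufv3, a small subunit of the NADH arm, was at 256, 276 and 263 CPM in foot and 135, 130 and 140 CPM in forelimb, a change of 0.97 ± 0.07 (edgeR adjusted p = 1.55e-11). All 3 foot libraries lay above all 3 forelimb libraries. At P3 its change was 0.22 ± 0.07, and this call was lost without replicate 1 of jerboa foot (0.17) or replicate 1 of jerboa forelimb (0.17). In mouse it changed by -0.02 ± 0.07 at P0, which was not called, and by -0.25 ± 0.07 at P3. Ndufs8, an iron-sulfur subunit next to the quinone site, was higher in jerboa foot at P0 (0.40 ± 0.10) and lower at P3 (-0.25 ± 0.10), and lower in mouse at both ages (-0.57 ± 0.10 and -0.64 ± 0.10). Ndufb11, of the membrane arm, was higher in jerboa foot at P0 (0.39 ± 0.11) and lower in mouse foot at P0 (-0.54 ± 0.11).

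Ndufa12, an accessory subunit of the NADH arm, was higher in foot at P0 and lower at P3 in both species. In jerboa it was at 82.6, 80.6 and 80.7 CPM in foot and 55.1, 52.5 and 52.5 CPM in the P0 forelimb, and at 56.3, 60.2 and 49.9 CPM and 71.3, 63.6 and 71.5 CPM at P3. Its foot and forelimb libraries overlapped at neither age. In mouse the changes were 0.41 ± 0.08 at P0 and -0.48 ± 0.08 at P3, and the limb by age difference, the change at P3 minus that at P0, was -0.91 ± 0.11 in jerboa and -0.89 ± 0.11 in mouse. Ndufa7, another accessory subunit, had the same pattern with smaller values: 0.31 ± 0.09 and -0.31 ± 0.08 in jerboa, and 0.24 ± 0.08 and -0.26 ± 0.08 in mouse. The mouse P0 call of Ndufa7 was lost when replicate 1 of foot (0.18), replicate 2 of forelimb (0.21) or replicate 3 of forelimb (0.18) was left out. Ndufa3, of the membrane arm, reversed in jerboa from 0.59 ± 0.09 at P0 to -0.45 ± 0.09 at P3, and was lower at both ages in mouse (-0.22 ± 0.09 and -0.46 ± 0.09). Ndufa11, a membrane subunit, was not called in jerboa at P0 (-0.05 ± 0.09), was higher in jerboa foot at P3 (0.36 ± 0.09) and was lower in mouse foot at both ages (-0.33 ± 0.10 and -0.65 ± 0.09).

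Complex II is the only complex whose subunits are all nuclear, and it also works in the citric acid cycle. Sdha, the flavoprotein that oxidises succinate, was at 421, 408 and 403 CPM in jerboa foot and 673, 754 and 750 CPM in jerboa forelimb at P0. It was at 282, 212 and 215 CPM in mouse foot and 456, 426 and 479 CPM in mouse forelimb at P0. The foot libraries were well below those of forelimb in both species, with changes from -0.82 ± 0.08 to -0.94 ± 0.08 over the 4 comparisons. Sdhd, a membrane anchor, was at 45.9, 45.9 and 47.4 CPM in jerboa foot and 122, 121 and 122 CPM in jerboa forelimb at P0. Its change of -1.39 ± 0.09 in jerboa was more negative than that in mouse (-0.91 ± 0.08), with a difference of -0.48 ± 0.12 (edgeR adjusted p = 0.00217), and of -0.47 ± 0.12 at P3. Sdhd was one of 2 members with a negative difference between the species at both ages, against 16.4% of all genes, the other being Ndufa4l2, whose P3 call was lost with limma voom (-1.07). Sdhc, the second anchor, changed by -0.48 ± 0.10, -0.54 ± 0.10, -0.96 ± 0.10 and -0.67 ± 0.10 in jerboa P0, jerboa P3, mouse P0 and mouse P3. Sdhb, the iron-sulfur subunit, was at 324 to 352 CPM in jerboa foot and 306 to 331 CPM in the P0 forelimb of jerboa, ranges that overlap (0.08 ± 0.08, not called), and fell in the other 3 comparisons by 0.60 in jerboa at P3, 0.47 in mouse at P0 and 0.68 in mouse at P3 on the log2 scale.

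In complex III, 4 of 8 members were lower in all 4 comparisons, against 10.5% of all genes tested. They were both core proteins, Uqcrc1 and Uqcrc2, the Rieske iron-sulfur protein Uqcrfs1, and the small subunit Uqcr11. Uqcrc2 was at 273, 245 and 307 CPM in jerboa foot and 535, 552 and 502 CPM in the P0 forelimb of jerboa (-0.95 ± 0.09), and changed by -0.96 ± 0.09 in mouse. Uqcrfs1 was at 137, 94.3 and 104 CPM in mouse foot and 295, 273 and 269 CPM in mouse forelimb at P0 (-1.32 ± 0.09), against -0.83 ± 0.09 in jerboa. These groups were separate, and the species' changes in Uqcrfs1 differed by 0.49 ± 0.12 at P0. The small subunits Uqcrq, Uqcr10 and Uqcrh were lower in mouse at both ages and were called lower in jerboa at neither. Jerboa foot libraries of Uqcr10 still lay below all forelimb libraries at both ages (-0.22 ± 0.12 and -0.25 ± 0.12, not called). Those of Uqcrh did so at P3 (-0.07 ± 0.11, not called). The species' changes differed at both ages for Uqcrq, at P0 only for Uqcr10 and at P3 only for Uqcrh. Uqcrq was higher in jerboa foot at P3 (0.50 ± 0.17), at 24.5, 24.5 and 17.8 CPM against 20.1, 12.4 and 15.1 CPM. Its groups overlapped, and the call was lost without replicate 1 (0.42) or 2 (0.42) of jerboa foot or replicate 2 of jerboa forelimb (0.34).

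The isoforms of the largest nuclear subunit of complex IV moved in opposite directions in jerboa. Cox4i1, the common form, was lower in foot in all 4 comparisons (-0.59 ± 0.07, -0.32 ± 0.07, -0.53 ± 0.07 and -0.71 ± 0.07). Cox4i2, its isoform known from lung and from low oxygen, was at 90.2, 81.7 and 69.0 CPM in jerboa foot and 29.8, 27.0 and 31.0 CPM in the P0 forelimb of jerboa, and at 71.9, 76.5 and 74.8 CPM and 31.8, 27.25 and 38.3 CPM at P3. Every jerboa foot library was above every jerboa forelimb library (1.45 ± 0.12 and 1.20 ± 0.12, edgeR adjusted p = 7.8e-11 and 1.83e-09). In mouse Cox4i2 was at 2.68 to 4.33 CPM in all libraries and was called at neither age (-0.09 ± 0.17 and -0.30 ± 0.15). With only the groups compared in the fit, Cox4i2 was called lower in mouse foot at P3 (-0.32). The species' changes differed by 1.54 ± 0.20 at P0 and 1.496 ± 0.19 at P3.

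The last 60 coding bases of the 2 mouse genes are shown because they tell these paralogs apart; each runs 5′ to 3′, and capitals mark the 11 positions at which they differ. They are read from the GENCODE M21 transcripts (GRCm38), of Cox4i1 at chr8:120668222-120674207 on the plus strand and Cox4i2 at chr2:152754173-152765037 on the plus strand.
Cox4i1: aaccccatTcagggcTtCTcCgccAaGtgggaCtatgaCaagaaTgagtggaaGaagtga
Cox4i2: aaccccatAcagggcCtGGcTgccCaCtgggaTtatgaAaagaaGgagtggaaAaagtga
Of the 19 codons before the stop, 5 encode another amino acid, and the 2 stretches share no 50-base window.

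In jerboa, 5 of the 9 tested members of complex IV had a positive limb by age difference, the change at P3 minus that at P0, against 16.2% of all genes tested: Cox5b, Cox6b1, Cox6c, Cox7b and Cox7c. In mouse Cox5a (0.47 ± 0.14), Cox6c (0.77 ± 0.19) and Cox7b (0.71 ± 0.19) were positive, against 17.2% of all genes. Cox7c, a small subunit, was at 32.6, 44.1 and 36.9 CPM in jerboa foot and 117, 99.1 and 96.0 CPM in jerboa forelimb at P0, with no overlap (-1.46 ± 0.17). At P3 the change was -0.42 ± 0.17 and the limb by age difference 1.04 ± 0.23. Cox6c and Cox7b, further small subunits, were lower in jerboa foot at P0 (-1.01 ± 0.13 and -0.99 ± 0.14) and not called at P3 (-0.09 ± 0.13 and -0.18 ± 0.14). Jerboa foot libraries of Cox7b still lay below all forelimb libraries at P3. With only the groups compared in the fit, Cox7b was called lower there (-0.21). Cox5b, which carries a zinc ion, was at 171, 153 and 173 CPM in jerboa foot and 289, 284 and 282 CPM in jerboa forelimb at P0. Its groups were apart at P0 (-0.78 ± 0.09) and overlapped at P3 (0.04 ± 0.09), and its difference between the species was -0.66 ± 0.12 at P0 and 0.40 ± 0.12 at P3, the 1 member with called differences of opposite sign. Cox5a fell in all 4 comparisons (-0.77 ± 0.10, -0.93 ± 0.10, -1.18 ± 0.10 and -0.70 ± 0.10).

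Cox6b1, at the outer face of complex IV, was lower in foot in all 4 comparisons (-0.78 ± 0.11, -0.30 ± 0.11, -0.33 ± 0.11 and -0.57 ± 0.11). Its call in jerboa at P3 was lost without replicate 1 (-0.29) or 3 (-0.28) of foot or replicate 1 of forelimb (-0.29). In mouse at P0 it was lost without replicate 2 (-0.24) or 3 (-0.27) of foot or replicate 1 of forelimb (-0.21). Cox6b2, the isoform known from testis, was at 7.97, 10.9 and 12.1 CPM in mouse foot and 5.51, 4.84 and 6.31 CPM in mouse forelimb at P0, with no overlap (0.90 ± 0.18). At P3 in mouse it was not called (0.30 ± 0.19). In jerboa it had at most 1 read in any library, too few for a fold to be read. Without it, the median change of the 71 other tested members was -0.46, -0.31, -0.64 and -0.56.

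Of the 15 members of complex V, 13, 9, 13 and 14 were lower in foot and 1, 0, 0 and 0 higher, in the order jerboa P0, jerboa P3, mouse P0 and mouse P3. Of all genes tested, 34.8%, 32.1%, 29.3% and 25.3% were lower and 31.2%, 35.9%, 29.8% and 27.3% higher, in the same order. Atp5a1, the subunit alpha of the catalytic head, was at 1159.7, 1166 and 1204 CPM in jerboa foot and 2282.5, 2496.5 and 2381 CPM in jerboa forelimb at P0. In mouse it was at 1386, 986 and 988 CPM in foot and 2061, 1939 and 2150 CPM in forelimb. The groups were apart in both species, with changes of -1.02 ± 0.09, -0.68 ± 0.09, -0.87 ± 0.09 and -0.60 ± 0.09. Atp5e, subunit epsilon of the central stalk, was at 179, 153 and 165 CPM in jerboa foot and 447, 359 and 332 CPM in jerboa forelimb at P0 (-1.19 ± 0.13). At P3 its groups overlapped (-0.06 ± 0.13), and the limb by age difference was 1.14 ± 0.19. Atp5mpl, a small membrane proteolipid, was lower in foot at P0 in mouse (-1.14 ± 0.12) and in jerboa (-0.55 ± 0.13). Atp5l, subunit g, was lower in jerboa foot at P0 (-0.55 ± 0.06). Its mouse level was 0.57 to 1.46 CPM, and 68.5% of the 50-base windows of its mouse transcript also occur in transcripts from other places, so its mouse values are uncertain.

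Atp5g1, Atp5g2 and Atp5g3 encode the same membrane-ring subunit c from 3 genes. In their last 75 codons before the stop, the mouse genes differ at 34 to 49 bases and at no amino acid, which is why their ends are shown, 5′ to 3′, with capitals at the 17 positions where the 3 are not alike. The genes lie on the minus strand of GRCm38 at chr11:96068852-96075670 (Atp5g1), chr15:102662864-102671127 (Atp5g2) and chr2:73908447-73911326 (Atp5g3).
Atp5g1: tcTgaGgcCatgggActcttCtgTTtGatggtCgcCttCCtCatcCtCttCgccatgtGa
Atp5g2: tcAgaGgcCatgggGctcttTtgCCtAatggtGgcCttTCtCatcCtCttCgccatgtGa
Atp5g3: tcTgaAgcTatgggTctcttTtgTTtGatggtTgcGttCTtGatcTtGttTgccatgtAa
They share no 50-base window in this stretch.

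These genes for 1 protein did not move together. Atp5g1 was at 263, 279.8 and 254 CPM in jerboa foot and 432, 437 and 436 CPM in jerboa forelimb at P0 (-0.71 ± 0.09). Atp5g3 was at 223, 246 and 251 CPM against 442, 451 and 452 CPM (-0.90 ± 0.09). Atp5g2 was at 328, 279.5 and 291 CPM against 240.1, 238 and 240.5 CPM (0.32 ± 0.09), so that foot was above forelimb for this gene and below it for the other two. Atp5g1 and Atp5g3 were lower in the other 3 comparisons too, by 0.38 to 0.90 on the log2 scale. Atp5g2 was not called in jerboa at P3 (-0.04 ± 0.09) or mouse at P0 (-0.02 ± 0.09), and its change in mouse at P3 (-0.22 ± 0.09) lost its call when any 1 of the 6 libraries was left out, at -0.19 to -0.24. Of the windows of the whole mouse Atp5g2 transcript, 87.4% also occur in transcripts from other places, so its mouse count may hold or lack reads of those.

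**Figure D3:**
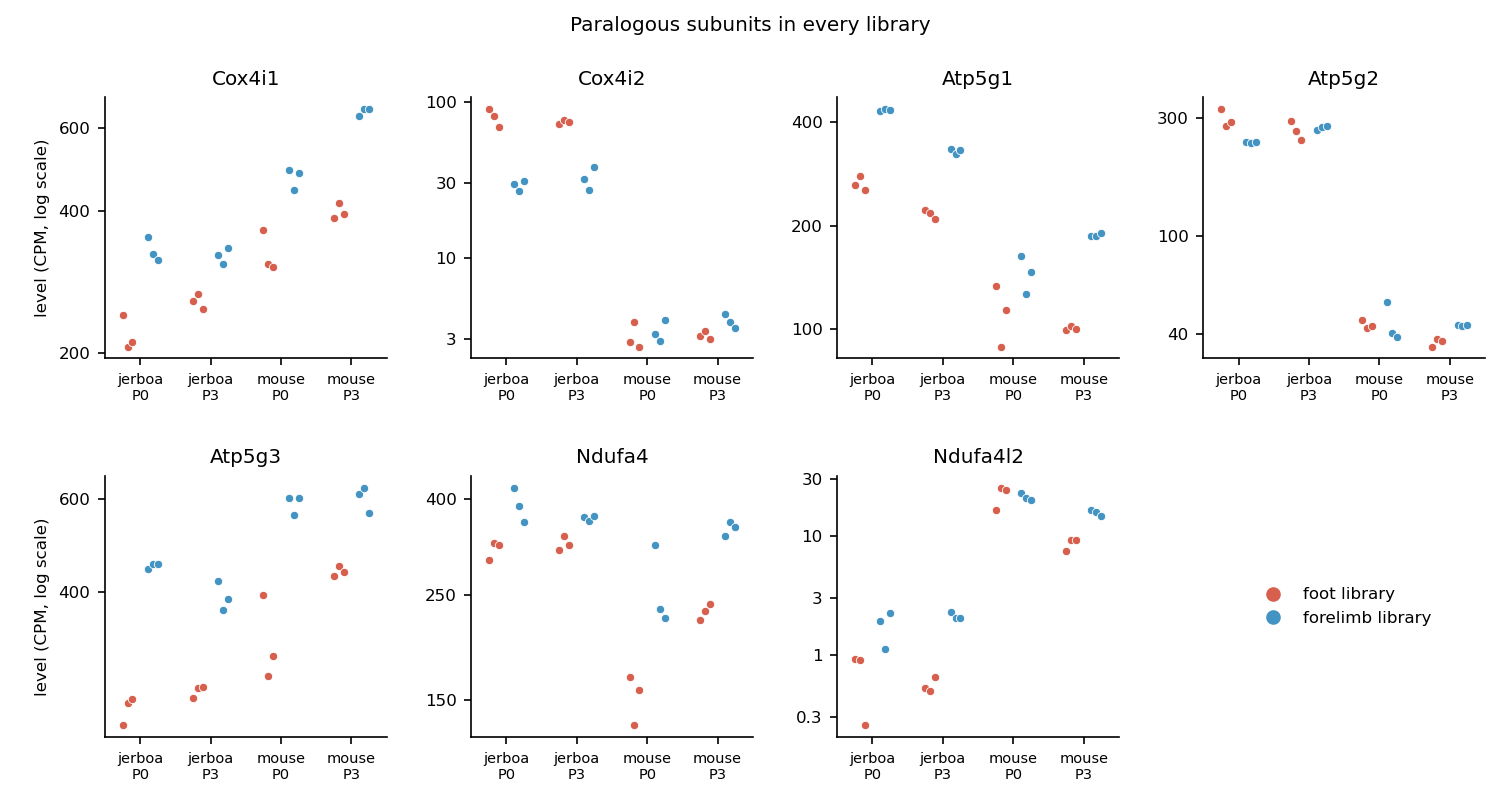
Levels (CPM, log scale) of paralogous subunits in every library, foot in red and forelimb in blue. Cox4i2 and Atp5g2 are above forelimb in jerboa foot at P0 (69.0 to 90.2 CPM and 279.5 to 328 CPM) while Cox4i1, Atp5g1 and Atp5g3 are below it; heights cannot be compared between genes or species.

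Ndufa4, named for complex I and known as a subunit of complex IV, was lower in foot in jerboa at P0 (-0.31 ± 0.10) and in mouse at both ages (-0.76 ± 0.10 and -0.59 ± 0.10), and not called in jerboa at P3 (-0.18 ± 0.10). Jerboa foot libraries of Ndufa4 still lay below all forelimb libraries at P3. With only the groups compared in the fit, Ndufa4 was called lower there (-0.21). Its paralog Ndufa4l2, known to be induced by low oxygen, was at 0.92, 0.91 and 0.26 CPM in jerboa foot and 1.94, 1.115 and 2.23 CPM in jerboa forelimb at P0, which is 4 to 16 reads and 30 to 75 reads a library. The groups were apart (-1.33 ± 0.33, and -1.96 ± 0.30 at P3) at these low counts. In mouse, at 16.5 to 25.4 CPM in foot and 20.1 to 23.1 CPM in forelimb at P0, the groups overlapped (0.05 ± 0.15), and foot was lower at P3 (-0.86 ± 0.16). The species' changes differed by -1.38 ± 0.37 at P0 and -1.10 ± 0.35 at P3, the second of which was not called with limma voom (-1.07).

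The difference between the species' changes, tested as jerboa minus mouse on the same libraries as above, asks whether a limb difference is larger or smaller in jerboa than in mouse. At P0, 28 members had a positive difference, a change less negative or more positive in jerboa, and 7 a negative one, against 21.6% and 26.9% of all genes and 48.6% in either direction. Without replicate 1 of mouse foot at P0, 4 were negative. At P3, 25 were positive and 4 negative, against 24.1%, 24.9% and 49% of all genes. With only the groups compared in the fit, 38 were positive and 8 negative at P3. The median difference was 0.23 at P0 and 0.26 at P3, and -0.05 and 0.02 over all genes tested. The SD of the members' median difference was 0.31 at P0 and 0.11 at P3, so the P0 median is the less certain. Complex I had 16 positive members of 36 at P0 and 18 at P3, whereas complex V had 5 and 2 of 15. At both ages 15 members were positive, among them Cox4i2, Ndufs4, Ndufs5, Ndufb2, Ndufb11, Ndufs8, Ndufv2, Ndufv3 and Uqcrq, against 12.7% of all genes, and 2 were negative. Ndufc2, of the membrane arm, was negative at P3 (-0.61 ± 0.16), with changes of -0.77 ± 0.11 in jerboa and -0.16 ± 0.11 in mouse.

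**Figure D4:**
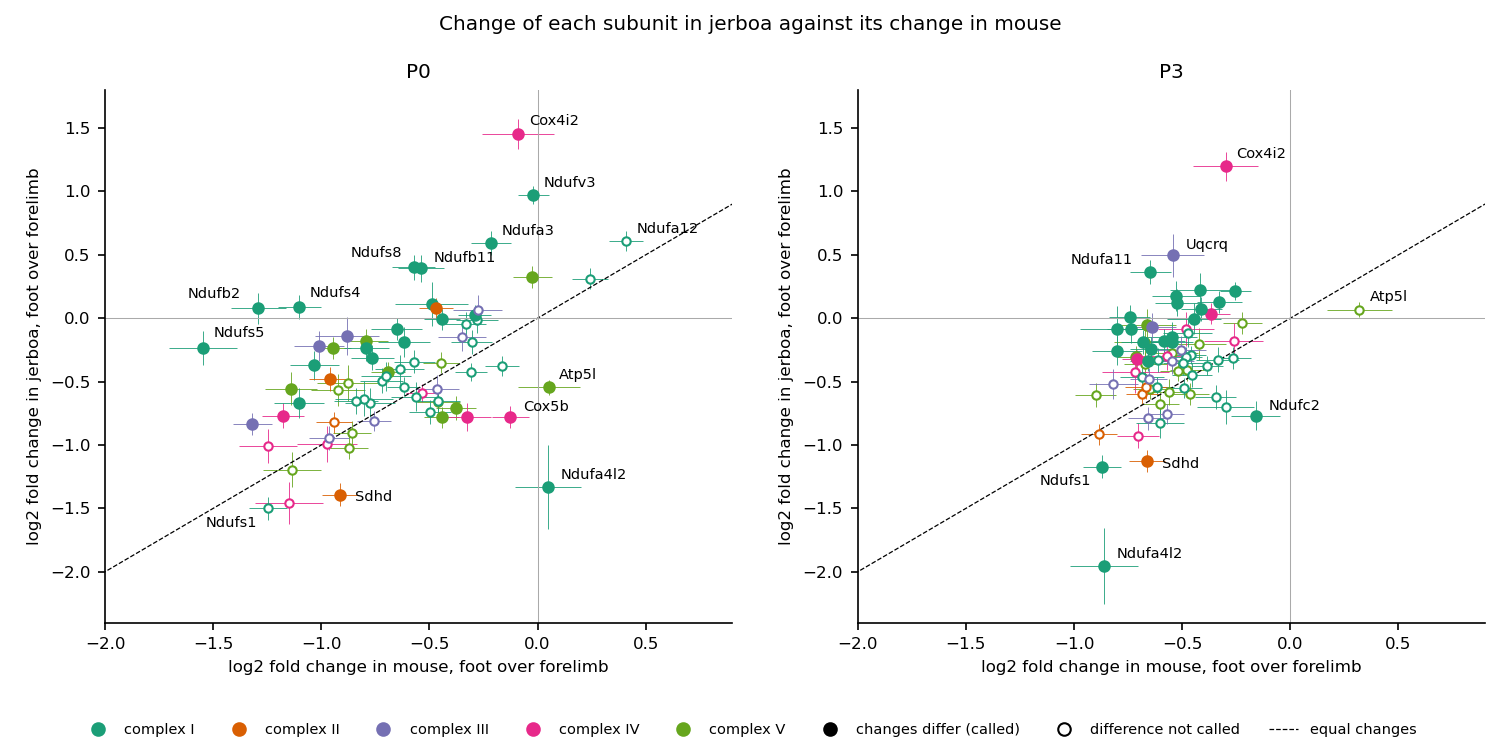
Change of each member in jerboa (vertical) against its change in mouse (horizontal), log2 scale with SE bars, at P0 and P3, coloured by complex; filled points are members whose 2 changes differ by test, and the dashed line marks equal changes. Most filled points lie above the line, 28 of 35 at P0 and 25 of 29 at P3, with Cox4i2 farthest above and Ndufa4l2 farthest below among the members drawn; Cox6b2 is left out.

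The changes of the 72 members in jerboa and in mouse had a Pearson r of 0.51 and a Spearman rho of 0.45 at P0, and 0.54 and 0.37 at P3, over points that share the same 6 libraries in each species. Over all genes tested r was 0.33 and rho 0.42 at P0, and 0.34 and 0.41 at P3, so that at P3 the members' rho was below that of all genes. Among jerboa members, 11 had a negative limb by age difference and 15 a positive one, against 12.1% and 16.2% of all genes and 28.3% in either direction. Negative ones, for which foot was lower relative to forelimb at P3 than at P0, were in complex I for 8 of 11, with Ndufa12, Ndufa3 (-1.04 ± 0.13) and Ndufv3 (-0.75 ± 0.10) having the smallest p. Among the positive ones, Atp5l (0.61 ± 0.09), Cox5b (0.82 ± 0.12) and Atp5e had the smallest p. In mouse, 7 were negative and 17 positive, against 14.3%, 17.2% and 31.5% of all genes. The mouse counts moved with single libraries: 28 members were positive without replicate 1 of foot at P0, 10 without replicate 2 of foot at P0 and 11 without replicate 1 of forelimb at P0, and 11 were negative without that forelimb library. In mouse, Ndufs5 (1.13 ± 0.21), Ndufb2 (0.85 ± 0.18) and Uqcrfs1 (0.66 ± 0.12) had the smallest p among the positive ones. Ndufa12, Ndufa7 (-0.51 ± 0.12) and Ndufa4l2 (-0.91 ± 0.22) had it among the negative ones.

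The complex IV isoforms that the name rule leaves out split by form in jerboa. All 3 muscle isoforms, Cox6a2, Cox7a1 and Cox8b, were lower in foot in all 4 comparisons, and the call of Cox8b in mouse at P0 (-0.47 ± 0.13) was lost without replicate 1 of forelimb (-0.31). The ubiquitous forms Cox6a1, Cox7a2 and Cox8a, and the Cox7a2-like gene Cox7a2l, listed with them, were all higher in jerboa foot at both ages. Cox6a1 was at 1.27 ± 0.09 and 0.92 ± 0.09. The P0 call of Cox7a2 (0.44 ± 0.14) was lost without replicate 3 of foot (0.28) or of forelimb (0.31). In mouse 1 of these 4 genes was higher and 2 lower at P0, and 2 were higher and 1 lower at P3. Of these, Cox7a2l at P0 (-0.23) lost its call without replicate 2 (-0.22) or 3 (-0.23) of foot or replicate 1 of forelimb (-0.10), and Cox6a1 at P3 (0.24) without replicate 2 of foot (0.20) or replicate 3 of forelimb (0.19).

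The pathways that feed the chain were lower in foot in both species. Of 18 genes of the citric acid cycle and pyruvate dehydrogenase, 17, 18, 17 and 16 were lower and 0, 0, 0 and 1 higher in jerboa P0, jerboa P3, mouse P0 and mouse P3. For these and the lists that follow, the shares of all genes tested were 34.8%, 32.1%, 29.3% and 25.3% lower and 31.2%, 35.9%, 29.8% and 27.3% higher, in that order. Citrate synthase, Cs, changed by -1.04 ± 0.08 and -1.28 ± 0.08 in jerboa, and the pyruvate dehydrogenase subunit Pdha1 by -1.06 ± 0.08 in jerboa and -1.30 ± 0.08 in mouse at P0. Of 16 genes of fatty acid oxidation, 15, 16, 15 and 15 were lower and 0, 0, 1 and 0 higher. The trifunctional protein subunit Hadhb changed by -1.51 ± 0.07 and the electron transfer enzyme Etfdh by -1.56 ± 0.08 in jerboa at P0. Cytochrome c (Cycs) and cytochrome c1 (Cyc1) were lower in all 4 comparisons, with Cycs at -0.69 ± 0.13, -0.63 ± 0.13, -1.70 ± 0.14 and -1.15 ± 0.13.

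Of 18 regulators of mitochondrial genes, 11, 10, 9 and 9 were lower and 3, 3, 4 and 0 higher. Ppargc1a, the coactivator that drives mitochondrial biogenesis in muscle, was not called in jerboa at P0 (-0.23 ± 0.14) and was lower in the other 3 comparisons (-1.12 ± 0.14, -2.32 ± 0.15 and -1.64 ± 0.14). The nuclear receptor Esrra was lower in all 4 (-1.08 ± 0.09, -0.39 ± 0.09, -0.95 ± 0.09 and -0.47 ± 0.09). Tfam, which packs mitochondrial DNA, was lower in 3 and not called in jerboa at P3 (0.08 ± 0.09). Nrf1, a transcription factor of respiratory genes, was higher in jerboa at P0 (0.28 ± 0.08) and in mouse at P0 (0.40 ± 0.08). Its value in jerboa at P3 (0.18 ± 0.08) lost its call with upper quartile scaling (0.16), among other alternatives, and it was not called in mouse at P3 (-0.09 ± 0.08).

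**Figure D5:**
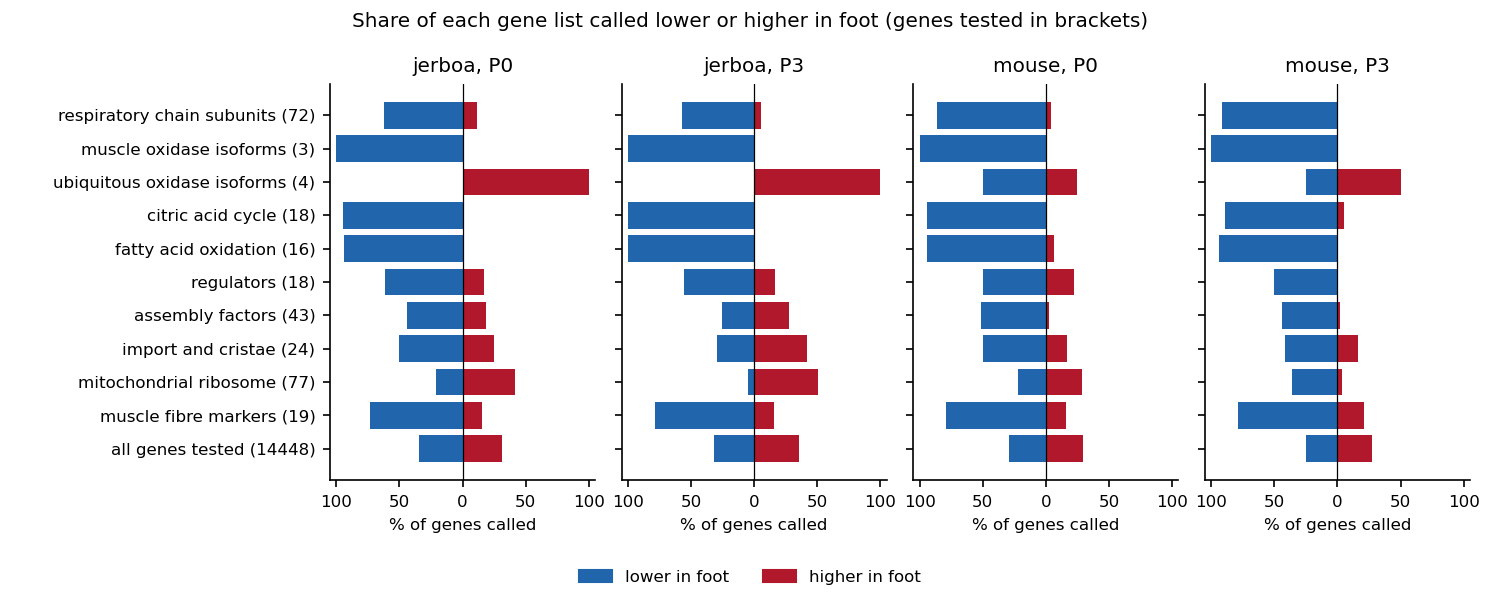
Share of the genes of each list (bars, % of those tested) called lower (blue, to the left) or higher (red, to the right) in foot, in jerboa and mouse at P0 and P3. The respiratory chain subunits lean to lower in every panel, from 56.9% in jerboa at P3 to 91.7% in mouse at P3, whereas of the 77 mitochondrial ribosome genes 32 and 39 are higher in jerboa foot at P0 and P3.

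Markers of other cell types also differed between the tissues, and their part in these results was not tested. Of the 19 muscle fibre genes 14, 15, 15 and 15 were lower and 3, 3, 3 and 4 higher in foot, in the order above. All 9 endothelial markers were lower in foot in jerboa at both ages and in mouse at P3, and 7 in mouse at P0, with summed levels of 187 to 254 CPM in jerboa foot and 732 to 1191 CPM in jerboa forelimb, and 528 to 595 CPM and 907 to 1253 CPM in mouse. Of 10 tendon markers 8, 8, 7 and 9 were higher and 0, 0, 1 and 0 lower, with sums of 9266 to 15261 CPM in jerboa foot and 4696 to 6421 CPM in jerboa forelimb, and 3985 to 5882 CPM and 2717 to 3566 CPM in mouse. Of 11 cartilage markers 7, 6, 9 and 10 were higher and 1, 1, 0 and 0 lower, with sums of 2249 to 4020 CPM and 1317 to 1734 CPM in jerboa, and 442 to 1066 CPM and 340 to 483 CPM in mouse. No fibre, endothelial or tendon marker was at 0 in a whole group, and 1 cartilage marker was in mouse forelimb at P3. Fibro-adipogenic markers (8 genes) summed to 3214 to 3323 CPM in jerboa foot and 2117 to 2220 CPM in jerboa forelimb at P0, and to 768 to 903 CPM and 1383 to 1734 CPM in mouse, so foot was above forelimb in jerboa and below it in mouse. At P3 they summed to 3127 to 3581 CPM and 2746 to 3218 CPM in jerboa, which overlap, and to 1263 to 1579 CPM and 2078 to 2164 CPM in mouse. Muscle progenitor markers (10 genes) summed to 1662 to 1865 CPM in mouse foot and 987 to 1011 CPM in mouse forelimb at P0, and to 1022 to 1075 CPM and 548 to 621 CPM at P3. In jerboa their foot and forelimb ranges overlapped at both ages. Keratinocyte markers (10 genes) summed to 83.0 to 126 CPM in jerboa foot and 14.5 to 16.7 CPM in jerboa forelimb at P0, and to 55.7 to 78.7 CPM and 17.9 to 28.1 CPM at P3, against 9.55 to 18.1 CPM over the mouse libraries. In jerboa foot 6 of the 10 had a mean under 1 CPM at P0 and 7 at P3, Krt14 among them. These sums therefore rest on few genes.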

How the data were processed

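The deposited files hold whole-number read counts per feature, and the column of stranded reads that held 98.4% to 99.6% of the stranded reads was used. Reads were aligned with STAR, per the submitters' processing notes. For the genome builds, the annotation, the kit and the handling of reads with several matches, the answer is the same: not given in the sources used here. Features were paired with mouse symbols through GENCODE M21 (GRCm38).

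Counts were fitted with edgeR 4.0.16 (limma 3.58.1, R 4.3.3): TMM factors (0.912 to 1.153), edgeR's own filter on low counts, 1 coefficient for each of the 8 groups, the quasi-likelihood test and Benjamini-Hochberg adjustment over 14448 genes, with a threshold of 0.05. The fit left 16 residual degrees of freedom. Simulated data were used only for jerboa foot against forelimb at P0, with the same spread for every gene. The other comparisons were not simulated. The 24 pairs of libraries within groups had r of 0.987 to 0.997 and differed beyond sampling noise. Where a count was 0, up to 3 reads are compatible with it, by counting error alone.

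The members and lists were chosen with earlier results of these data known. Named members are, for each complex and comparison, the called member with the lowest change; every member called higher in foot; the 3 with the smallest p in each direction of each difference; complex II; and members with paralogs. Named pathway genes are up to 3 with the smallest p in each list, and Ppargc1a, Esrra, Tfam and Nrf1. Other members are named to list a count and were chosen after their values were seen.

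Alternatives were upper quartile or RLE scaling, a stricter filter or none, DESeq2 1.42.0, limma voom, only the groups compared, a replicate block, reads of either strand, and each library left out. A description of promoters was planned and not run. Whether foot and forelimb libraries of the same number share an animal is not stated, and comparing the libraries did not settle it.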

Additional observations from a re-analysis of the deposited data

Results flagged for a closer look

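The values here were picked out because the limb difference itself differed between species or between ages, by edgeR's test of that difference over all genes. They are log2 differences, jerboa minus mouse or P3 minus P0, and species and age differences reuse the same libraries.

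Between the species, 35 of the 72 tested members differed at P0, which is near the share of all genes tested (48.6%). Cox5b (-0.66), Sdhd (-0.48) and Ndufa4l2 (-1.38) had the smallest p among negative differences. Ndufv3 (0.99), Ndufs4 (1.19) and Ndufb2 (1.37) had it among positive ones. At P3, 29 members differed, a smaller share than the 49% of all genes. Sdhd (-0.47), Ndufc2 (-0.61) and Ndufa4l2 (-1.10) were negative. Cox4i2 (1.496), Ndufa11 (1.01) and Ndufs4 (0.75) were positive.

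Between the ages, 26 members differed in jerboa, against 28.3% of all genes. Ndufa12 (-0.91), Ndufa3 (-1.04) and Ndufv3 (-0.75) were negative, and Atp5l (0.61), Cox5b (0.82) and Atp5e (1.14) positive. In mouse 24 differed, which is near the share of all genes (31.5%). Ndufa12 (-0.89), Ndufa7 (-0.51) and Ndufa4l2 (-0.91) were negative, and Uqcrfs1 (0.66), Ndufs5 (1.13) and Ndufb2 (0.85) positive. Age and the kind of read file cannot be told apart in these differences.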

How the results depend on the processing

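Over 234 single-gene results, 3596 of 3652 values under the alternatives kept their direction and side of the threshold, 42 lost a call, 5 gained one and 9 changed sign, none of those 9 being called in either fit. Calls of lower in foot were gained with only the groups compared by Cox7b and Ndufa4 in jerboa at P3 (both -0.21) and Cox4i2 in mouse at P3 (-0.32). Cox7b in mouse at P3 gained one with only the groups compared (-0.28) and without replicate 2 of foot (-0.38). With only the groups compared, 46 in place of 29 members had a species by limb difference at P3 (38 positive and 8 negative, in place of 25 and 4), where fewer libraries set the spread. Members higher in jerboa foot at P3 numbered 2 to 5, in place of 4, when each library was left out. With the replicate block 47, 45, 62 and 67 members were lower in foot in jerboa P0, jerboa P3, mouse P0 and mouse P3. The main fit had 45, 41, 62 and 66. Of 12 same-numbered pairs, 1 had a correlation of deviations above 0.1. With 3 libraries a group, such correlations cannot settle whether equal numbers share an animal. The sign changes were Atp5g2 in mouse at P0 (0.0034 with upper quartile scaling, -0.11 to 0.12 over libraries left out) and in jerboa at P3 (-0.11 to 0.027), Cox6b2 in jerboa (fitted values of -2.06 to 2.68 at P0 and 0 to 2.68 at P3, which rest on at most 1 read a library and are no folds), Ndufa4l2 in mouse at P0 (-0.071 to 0.21) and Cox4i2 in mouse at P0 (-0.29 to 0.048). The cause was not tested. Low counts limit the values of Cox6b2 and Ndufa4l2 in jerboa and of Atp5l in mouse, and why these counts were low was not tested.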

Other observations

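Other mitochondrial gene groups were counted in the same way, beside 34.8%, 32.1%, 29.3% and 25.3% of all genes lower and 31.2%, 35.9%, 29.8% and 27.3% higher. Of 77 genes of the mitochondrial ribosome, which translates the subunits made inside the organelle, 16, 4, 17 and 28 were lower and 32, 39, 22 and 3 higher in foot in jerboa P0, jerboa P3, mouse P0 and mouse P3, which in mouse at P0 is near the share of all genes higher. Of 43 assembly factors of the complexes, 19, 11, 22 and 19 were lower and 8, 12, 1 and 1 higher. Of 24 genes of mitochondrial import and cristae, 12, 7, 12 and 10 were lower and 6, 10, 4 and 4 higher, which in jerboa at P3 is near the share of all genes lower. Whether these groups differ from the subunits was not tested.

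The change of the 72 tested members had a Spearman rho with mouse transcript length of -0.22 to 0.02 over the 8 comparisons, given as a description across genes that share their libraries.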
